A study of Saccharomyces cerevisiae with 8 samples.

Results

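The genes described here encode the proteins of the small (40S) subunit of the cytosolic ribosome of Saccharomyces cerevisiae. They were chosen by name: every entry whose gene symbol is RPS, a number and, for duplicated genes, the letter A or B. This gave 56 genes among the 6936 entries of the deposited gene table, and all 56 also occur among the 6532 entries of the count table. They form 24 pairs of A and B copies (paralogs) and 8 single-copy genes, among them RPS12, RPS20 and RPS31. The name rule itself uses no measured value, but it was set with earlier results of these data known.

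The small subunit binds mRNA, reads its codons and carries the channel through which the message passes. Most of its proteins bind ribosomal RNA and are made in equal amounts, and in budding yeast many are encoded by a pair of genes that goes back to an ancient genome duplication. Ribosomal protein genes are among the most strongly transcribed genes of growing yeast, and their transcription follows nutrient signalling through the TORC1 and protein kinase A pathways. The poly(A) tail of an mRNA is bound by the poly(A)-binding protein Pab1 and is shortened before most mRNAs are decapped and degraded.

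All 8 libraries came from BY4741, a haploid MATa laboratory strain that carries the alleles ura3{delta}0, leu2{delta}0, his3{delta}1 and met15{delta}0, and no group has a further change of genotype. The 4 groups, of 2 libraries each, were Log phase cells from liquid culture and, after plating on solid medium, the colonies that had formed by Day 2, by Day 3 and by Day 4. PAT-seq reads the 3′ ends of polyadenylated RNA together with part of the tail, so that each gene has a read count, a count of reads with a tail and a mean tail length. Growth form, medium and time changed together between Log phase and the colonies, and their parts cannot be told apart. In bulk RNA, fewer cells that express a gene and less of its RNA per cell cannot be told apart either.

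Total counts were 6203115 (Day 2 replicate 1) to 8441949 (Log phase replicate 1) per library, and tailed reads were 2765040 to 3782771. MET17, which is deleted in this strain, had 0 counts in every library, and LEU2 and URA3 had at most 10 and 8. The MATa genes MFA1, MFA2 and STE2 had at least 8873, 3951 and 1869 counts in every library. MF(ALPHA)1, a pheromone gene of alpha cells, had 62 and 73 counts in Log phase, 115 and 98 on Day 2, 745 and 721 on Day 3 and 2435 and 2066 on Day 4, while STE3, the receptor gene of alpha cells, had at most 93. This rise runs in parallel with the changes below, and its part in them was not tested. The labels do not say whether the 2 replicates of a group were grown apart, so that the p-values rest on the spread between these libraries, which may be technical.

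Small-subunit transcripts made up a falling share of each library as colonies aged. They took 12.7% and 12.9% of counts in Log phase, 6.38% and 6.76% on Day 2, 3.36% and 3.48% on Day 3 and 2.52% and 2.37% on Day 4. The replicates lay close together and no groups overlapped. Among tailed reads alone the share was 2.30% and 2.16% on Day 4, against 11.7% and 11.5% in Log phase. Large-subunit genes took 4.10% and 3.83% of counts on Day 4, against 19.9% and 20.7% in Log phase.

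**Figure D1:**
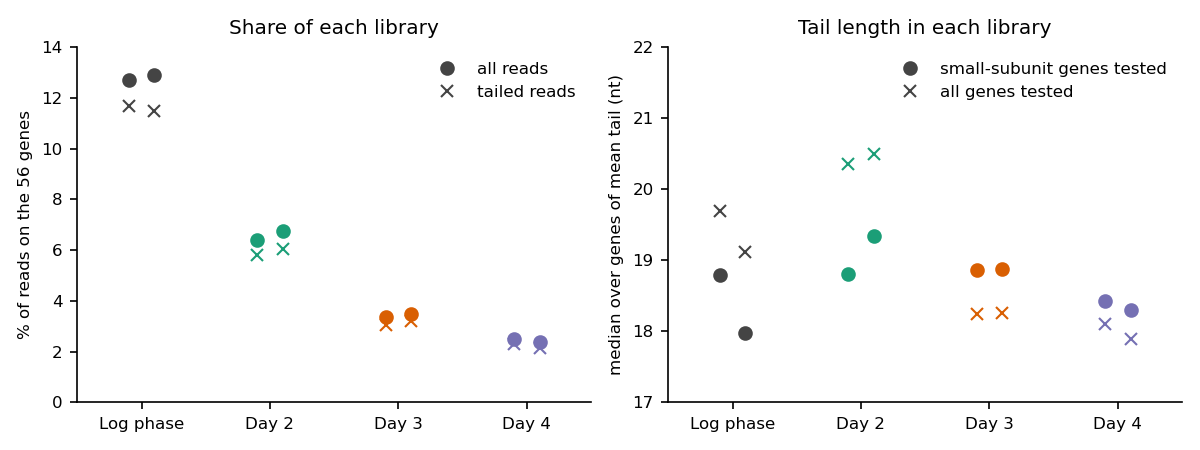
Left, percent of each library's reads on the 56 small-subunit genes, for all reads (circles) and tailed reads (crosses), in the 2 libraries of each group. Right, the median over genes of the mean poly(A) tail length in nt, for the small-subunit genes tested (circles) and all genes tested (crosses), on an axis that starts at 17 nt. The share falls with each group and is 2.52% and 2.37% on Day 4, against 12.7% and 12.9% in Log phase, while the median tail of the small-subunit genes stays between 17.97 and 19.34 nt.

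Levels are given as CPM with TMM scaling (counts divided by the scaled library size), and each change as a log2 fold change ± SE from edgeR's quasi-likelihood test over all genes, with n = 2 libraries in each group and genes called at a Benjamini-Hochberg adjusted p under 0.05. On Day 2, 54 of the 56 genes were lower than in Log phase, against 28.2% of all 5930 genes tested, with a median log2 fold change of -1.42 against 0.02 over all genes. On Day 3, 55 were lower (34.4% of all genes), with a median of -2.27 against 0.01. On Day 4, 55 were lower (37.0% of all genes), with a median of -2.85 against 0.01. In none of the 3 comparisons was a member called higher in edgeR, while 28.3%, 34.5% and 37.2% of all genes were, and the same 0 came from an unadjusted p under 0.05 and from DESeq2.

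Every gene of the 56 had both colony libraries below both Log phase libraries on Day 2, on Day 3 and on Day 4, as did 38.4%, 42.1% and 43.7% of all genes tested. The log2 fold changes ran from -2.24 to -0.49 on Day 2 and from -3.87 to -1.03 on Day 4. Large-subunit genes had medians of -1.40, -2.40 and -2.91 on the 3 days, with 78, 80 and 80 of 81 called lower. Under scaling to total counts alone the medians of the small-subunit genes were -1.04, -1.87 and -2.40, and that scaling moved the median of all genes to 0.40, 0.41 and 0.45. No call against Log phase was lost when any 1 library was left out.

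**Figure D2:**
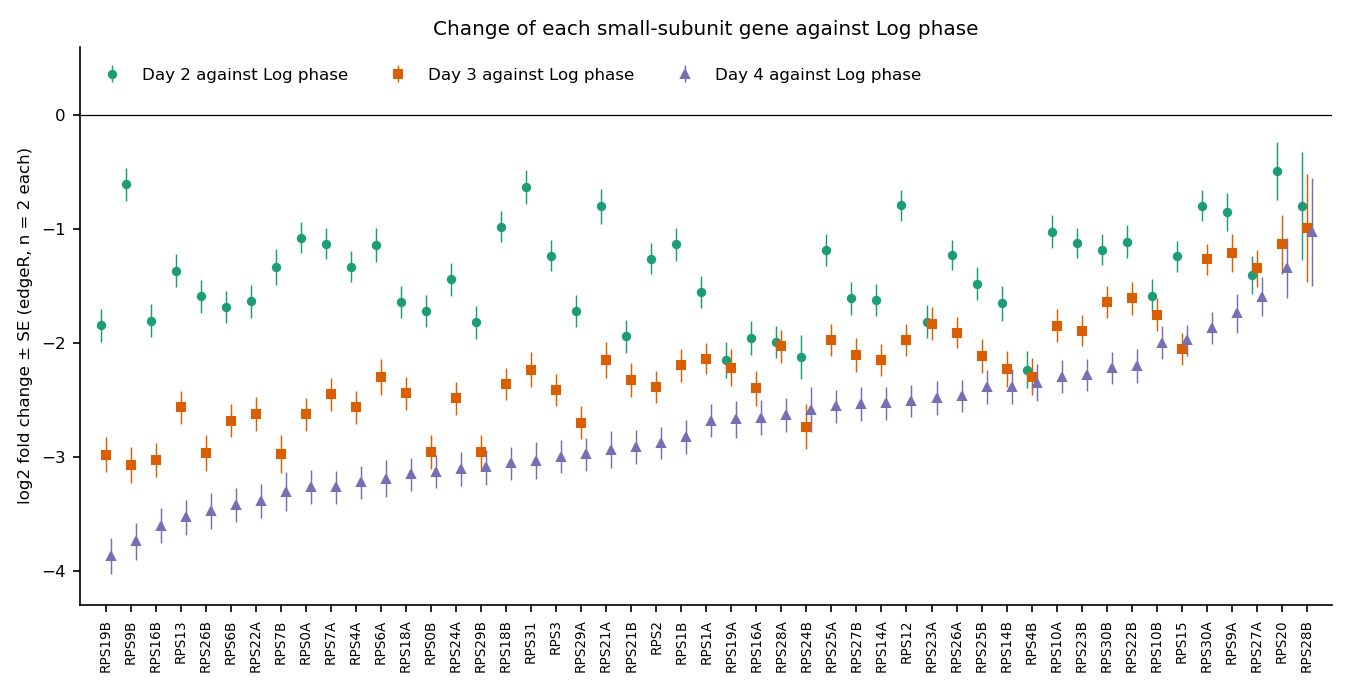
Log2 fold change against Log phase (y axis, with SE bars from edgeR, 2 libraries in each group) of 49 of the 56 small-subunit genes (x axis, ordered by the Day 4 value) on Day 2 (circles), Day 3 (squares) and Day 4 (triangles). Every point lies below 0, and the Day 4 values run from -3.87 for RPS19B to -1.03 for RPS28B, whose SE bars are the widest.

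Levels went on falling between the colony ages. Day 3 was lower than Day 2 for 48 of the 56 genes (25.2% of all genes tested), with a median of -0.82. Day 4 was lower than Day 3 for 41 genes (14.6% of all genes), with a median of -0.56, but for only 14 when Day 4 replicate 2 was left out. No member was called higher by edgeR in either comparison (24.2% and 11.8% of all genes), also at an unadjusted p under 0.05 and in DESeq2, except that 1 was higher on Day 3 than on Day 2 without Day 2 replicate 2.

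The fall came early for some genes and late for others. Over all 56 genes, the Day 2 log2 fold change was at the median 49.3% of the Day 4 one, and the Day 3 one was 80.4%. RPS4B was at 95.2% of its Day 4 change on Day 2, RPS27A at 88.1% and RPS24B at 82.2%, whereas RPS9B was at 16.2%, RPS31 at 20.9% and RPS21A at 27.3%. RPS31, which encodes a small-subunit protein fused to ubiquitin, had 3117 and 3274 CPM in Log phase, 2339 and 1784 on Day 2, 623.2 and 733.9 on Day 3 and 408.3 and 372.4 on Day 4. Its Day 2 libraries stood nearer to Log phase than to Day 3, with log2 fold changes of -0.63 ± 0.15 on Day 2 against Log phase (adjusted p = 0.000932) and -1.60 ± 0.15 on Day 3 against Day 2 (adjusted p = 1.5e-08). Under scaling to total counts its Day 2 change was -0.26 (adjusted p = 0.13).

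Among all reads, RPS9B had the smallest part of its Day 4 change on Day 2. It encodes a protein of the mRNA entry channel that bears on the accuracy of decoding. It had 5420 and 6720 CPM in Log phase, 4188 and 3780 on Day 2, 660.4 and 781.4 on Day 3 and 470 and 436 on Day 4. The log2 fold change was -0.61 ± 0.14 on Day 2 (adjusted p = 0.00101), -2.47 ± 0.15 on Day 3 against Day 2 (adjusted p = 5.34e-11) and -3.74 ± 0.16 on Day 4 against Log phase (adjusted p = 2.19e-15). The Day 2 level depended on which reads were counted. With tailed reads alone RPS9B was lower on Day 2 by a log2 fold change of -1.41 ± 0.14, and with all reads scaled to total counts by -0.23 (adjusted p = 0.162). In tailed reads its Day 2 change was 40.3% of its Day 4 change, near the median of 47.4% over the 56 genes, while RPS31 was at 19.3%. The share of its reads with a tail was 22.02% and 16.95% in Log phase, 10.8% and 11.1% on Day 2, 19.0% and 16.2% on Day 3 and 19.8% and 19.9% on Day 4.

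RPS4B, by contrast, was near its final level on Day 2. It encodes a protein of the subunit's body and had 1895 and 1895 CPM in Log phase, 327.4 and 476.2 on Day 2, 391.8 and 380.6 on Day 3 and 368.2 and 375.1 on Day 4. The Day 3 and Day 4 libraries fell within the range of the Day 2 ones. The log2 fold change was -2.24 ± 0.16 on Day 2 against Log phase (adjusted p = 8.29e-11) and -0.06 ± 0.16 on Day 3 against Day 2 (adjusted p = 0.781). RPS23A, RPS28A and RPS19A had likewise changed by -1.82, -1.99 and -2.15 on Day 2 and by only -0.02, -0.04 and -0.07 from Day 2 to Day 3, with adjusted p of 0.942, 0.842 and 0.74. Unlike RPS4B, they fell again from Day 3 to Day 4, by -0.65, -0.60 and -0.45 (edgeR, adjusted p = 0.00169, 0.00264 and 0.0334). RPS4B had -0.055 there (adjusted p = 0.831).

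The most negative change on Day 4 was that of RPS19B, a protein of the subunit's head whose human counterpart is mutated in Diamond-Blackfan anaemia. RPS19B had 1887 and 1826 CPM in Log phase, 488.5 and 546.3 on Day 2, 220.2 and 249.8 on Day 3 and 134.2 and 119.2 on Day 4. Each group lay below the one before it without overlap, and the log2 fold change on Day 4 was -3.87 ± 0.16 (adjusted p = 1.2e-15). RPS16B, a head protein whose tail reaches the tRNA site, had 3727 and 3930 CPM in Log phase, 1135 and 1059 on Day 2, 430.5 and 510.5 on Day 3 and 331.3 and 297.8 on Day 4. Its groups did not overlap, and its Day 4 change was -3.61 ± 0.15 (adjusted p = 2.12e-15).

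RPS14A, which encodes a platform protein, was the highest of the 56 genes in Log phase. It had 8650 and 8850 CPM in Log phase, 2685 and 2992 on Day 2, 2066 and 1886 on Day 3 and 1619 and 1407 on Day 4. The groups did not overlap, and the Day 4 change of -2.53 ± 0.14 (adjusted p = 1.66e-13) was smaller than that of the median member.

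Some genes kept more of their Log phase level. RPS27A, a zinc-finger protein of the body, had 1213 and 1264 CPM in Log phase, 371.1 and 564.7 on Day 2, 520.3 and 453.9 on Day 3 and 410.8 and 410.1 on Day 4. The colony libraries lay together, and the change on Day 4 was -1.59 ± 0.17 (adjusted p = 1e-08). RPS9A had 541.9 and 490.1 CPM in Log phase, 238 and 334 on Day 2, 204.2 and 241.8 on Day 3 and 169.2 and 140.2 on Day 4, with a Day 4 change of -1.74 ± 0.17 (adjusted p = 3.33e-09). All colony libraries of RPS9A lay below Log phase, and its Day 2 and Day 3 libraries overlapped. RPS30A at -1.87 and RPS15 at -1.98 came next.

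RPS28B was not called in any comparison with Log phase. It is the copy with fewer counts in the RPS28 pair, which encodes a protein at the mRNA exit. RPS28B had 6.61 and 6.33 CPM in Log phase, 4.21 and 3.28 on Day 2, 2.59 and 3.88 on Day 3 and 2.54 and 3.78 on Day 4. The Log phase libraries were the highest, and the Day 4 change was -1.03 ± 0.47 (adjusted p = 0.0543). The adjusted p was 0.161 on Day 2 and 0.0667 on Day 3. RPS28B passed on Day 4 when Day 2 replicate 2 (0.0407) or Day 3 replicate 1 (0.0483) was left out. RPS28B had 254 counts over all libraries.

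RPS20, a head protein encoded by a single gene, was the other one not called on Day 2. RPS20 had 21.4 and 24.4 CPM in Log phase, 14.1 and 18.4 on Day 2, 11.1 and 9.76 on Day 3 and 9.48 and 8.56 on Day 4, with a Day 2 change of -0.49 ± 0.25 (adjusted p = 0.105) and a Day 4 change of -1.34 ± 0.26 (adjusted p = 7.61e-05). The count table holds only 0.04 times as many reads for RPS20 as the gene table, so these counts are uncertain. Its tailed reads gave 1505 and 1269 CPM in Log phase, 484.2 and 596.6 on Day 2, 181.2 and 219.9 on Day 3 and 134.3 and 111.2 on Day 4. On that scale RPS20 was lower by -1.36 ± 0.17 on Day 2 (adjusted p = 2.97e-07) and by -3.50 ± 0.18 on Day 4 (adjusted p = 3.76e-14).

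When the genes were grouped by where their proteins sit, nearly every member of each of the 4 groups was called lower on Day 4. The share over all genes tested was 37.0%. The 21 genes of the body had a median log2 fold change of -3.19 on Day 4 and all 21 were called lower. The 18 genes of the head had a median of -2.66 with 18 lower, the 9 genes of the mRNA exit and platform -2.63 with 8 lower, and the 8 genes of the mRNA entry channel and decoding centre -2.38 with 8 lower. The ranges of the 4 groups overlapped widely, the body genes running from -3.74 to -1.59 and the entry channel genes from -3.74 to -1.74. Genes with an intron (36 of 56) had a median of -2.89 and those without (20) one of -2.79.

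Short sequences upstream of the genes were compared because the members moved together. Rap1, a general activator of ribosomal protein genes in yeast, binds sites close to ACACCC, any 2 bases, then ACA. A looser form reads ACA, any 1 base, CC, any 2 bases, then ACA, and includes all matches of the stricter one. Both were searched on both strands of the 500 bases before the start codon in the R64 genome, and both were picked after these data had been seen. The 2 sites printed are those of the RPS19 copies, whose A-to-B ratio changed, each read 5′ to 3′ on the strand of the gene with the matched letters in capitals.
RPS19A (chrXV:93105-93133, minus strand): gacacaactACATCCGTACAcatgtgacg
RPS19B (chrXIV:63311-63339, minus strand): tactactttACATCCGAACAttttagcaa
They lie 264 and 377 bases before their start codons, so both copies hold the looser form.

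The looser form occurred before 19 of the 56 small-subunit genes (33.9%) and before 2.38% of 6000 promoters of the same length, and the stricter one before 8 (14.3%) and 0.93% of promoters. The nearest match lay 180 to 465 bases before the start codon, at the median 330. A site of the factor Abf1 was found before 5 (8.9%) and before 15.88% of promoters. Large-subunit genes were close to the members, with the looser form before 28.8% of 80 genes, the stricter one before 13.8% and the Abf1 site before 7.5%. The 19 genes with the looser form had a median Day 4 log2 fold change of -2.91 and the other 37 one of -2.68. A match is a description of the letters and not a binding site.

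The A and B copies encode nearly the same protein and were set side by side next. Their coding sequences are 84.3% to 99.2% identical, at the median 92.8%, while the 150 bases after the stop codon are 48.1% to 58.0% identical and share no run longer than 11 bases. The last 30 coding bases of 3 pairs show how far the copies differ at the end of the coding sequence, with bases that differ in capitals and coordinates of the R64 genome.
RPS9A (chrXVI:406015-406044, plus strand): gAtgAAgCTgaTgAGgCCgaTgaagaataa
RPS9B (chrII:605479-605508, plus strand): gCtgCTgAAgaAgCCgAAgaCgaagaataa
RPS19A (chrXV:92026-92055, minus strand): gccgctcaaactttggaagaagacgaataa
RPS19B (chrXIV:61958-61987, minus strand): gccgctcaaactttggaagaagacgaataa
RPS27A (chrXI:159183-159212, plus strand): tctgaGggtacAtctttcagaagaaagtaa
RPS27B (chrVIII:147871-147900, minus strand): tctgaAggtacTtctttcagaagaaagtaa
Compared position by position without gaps, the copies of RPS9 differ at 11 of these bases, those of RPS27 at 2 and those of RPS19 at none. The coding sequences of RPS9A and RPS9B are 594 and 588 bases long, so their count depends on how the ends are lined up. After the stop codon the RPS19 copies are 50.6% identical over 150 bases, with no shared run longer than 9 bases. Reads lying there would thus differ between the copies. How reads shared by both copies were assigned, and whether strand was used, is not given in the sources used here, so the values of single copies are uncertain.

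Ratios of A counts to B counts were taken within each library, on the log2 scale, and need no scaling between libraries. In 11 pairs the A copy had more counts in all 8 libraries, in 5 pairs the B copy did, and in 8 pairs the order was mixed. RPS28 was the most uneven, with a mean log2 ratio of 7.93, followed by RPS14 at 3.58 and RPS26 at 2.93, and the most uneven pair in favour of B was RPS9 at -2.65. The RPS28 ratio rests on only 254 RPS28B counts over all libraries, and whether all RPS28B reads were assigned to that gene is not known. Dividing by coding length changed the order of no pair, whereas tailed reads alone put the other copy higher in 4 pairs, among them RPS19 and RPS25. In RPS25 the mean log2 ratio was 1.66 from all reads and -0.37 from tailed reads, and 16.2% and 14.6% of RPS25A reads in Log phase carried a tail.

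**Figure D3:**
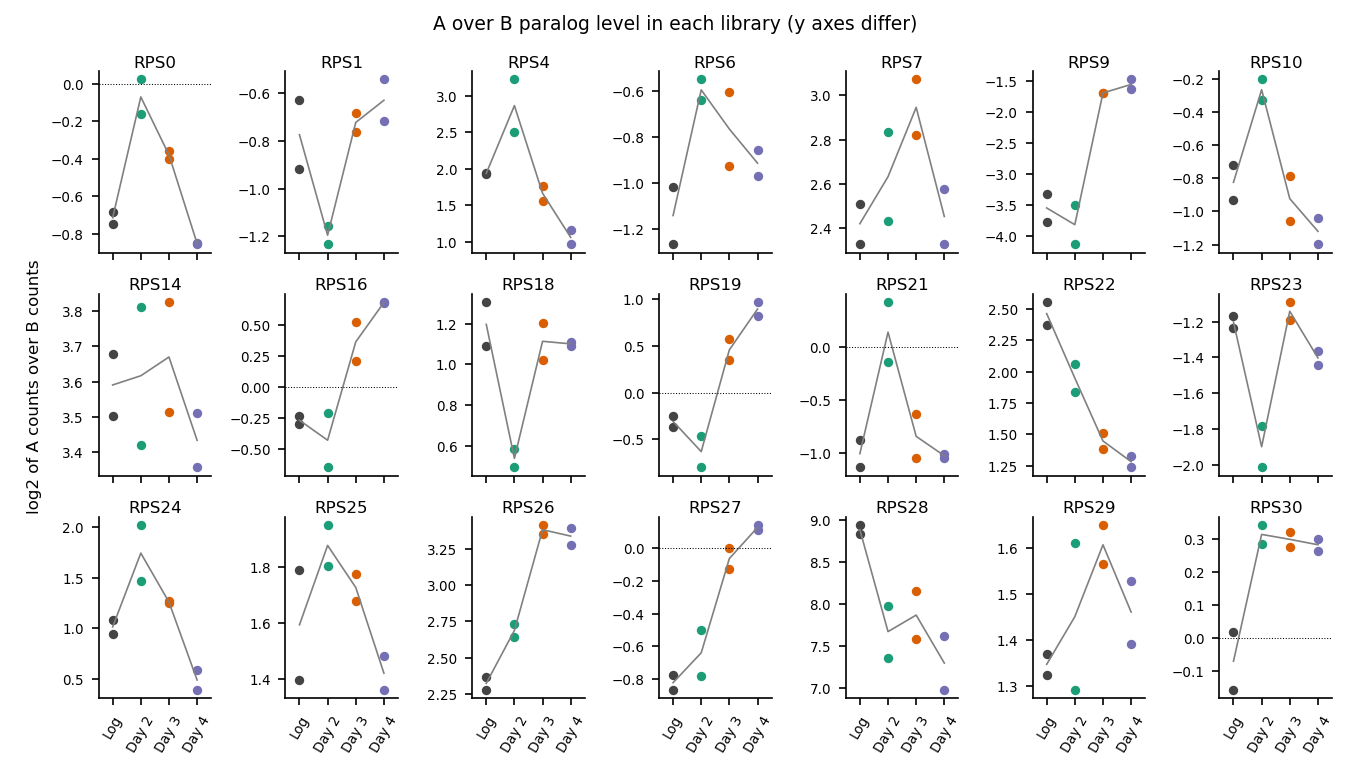
Log2 of A counts over B counts (y axis, scaled separately for each pair) in the 2 libraries of each group (points; the line joins group means) for 21 of the 24 small-subunit pairs. Dotted lines mark equal counts. The RPS9 ratio lies between -4.14 and -3.32 in Log phase and on Day 2 and between -1.69 and -1.47 on Day 3 and Day 4, and RPS19 and RPS16 cross 0.

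The balance of the copies changed across the 4 groups in 21 of the 24 pairs (limma moderated F test, adjusted p under 0.05), while 84.7% of all 59 A/B-named pairs of the genome changed, a number that includes these 24, and 29 of the other 35 did. Against Log phase the ratio differed in 14 pairs on Day 2 (57.6% of all pairs), 11 on Day 3 (35.6%) and 13 on Day 4 (44.1%). On Day 4 the log2 ratio was higher in 8 pairs (among them RPS9, RPS16, RPS19, RPS26, RPS27 and RPS30) and lower in 5 (among them RPS4, RPS22, RPS24 and RPS28). Of these, 8 of the 12 pairs that tailed reads could test were called in the same direction with tailed reads, and 4 (among them RPS22, RPS24 and RPS30) were not. Whichever 1 library was left out, 7 of the 8 and 3 of the 5 kept their calls, RPS24 and RPS30 being among the exceptions. Called on Day 4 in tailed reads but not in all reads were RPS0 at -0.87 ± 0.15 (adjusted p = 0.000125), RPS23 at 0.82 ± 0.17 (adjusted p = 0.000656) and RPS25 at -0.65 ± 0.16 (adjusted p = 0.00229). RPS14, RPS25 and RPS29 did not pass the F test, with adjusted p of 0.566, 0.0741 and 0.413, but in tailed reads RPS25 (adjusted p = 0.00158) and RPS29 (adjusted p = 0.0195) did.

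RPS9 had the smallest p. Its log2 ratio was -3.32 and -3.78 in Log phase, -4.14 and -3.50 on Day 2, -1.69 and -1.69 on Day 3 and -1.47 and -1.64 on Day 4. Log phase and Day 2 overlapped, and Day 3 and Day 4 lay well above them. The ratio was higher by 1.99 ± 0.21 on Day 4 than in Log phase (adjusted p = 2.07e-05), so that there were 0.34 RPS9A counts for each RPS9B count on Day 4 and 0.0854 in Log phase. With tailed reads the Day 4 change was 1.98 ± 0.20, but the ratio was already higher on Day 2, by 0.60 (adjusted p = 0.0188), where all reads gave -0.27 (adjusted p = 0.288).

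RPS19 changed its order. Its log2 ratio was -0.37 and -0.25 in Log phase, -0.80 and -0.47 on Day 2, 0.57 and 0.34 on Day 3 and 0.82 and 0.97 on Day 4. RPS19B thus had more counts in Log phase and on Day 2, and RPS19A on Day 3 and Day 4, with a change of 1.21 ± 0.15 on Day 4 (adjusted p = 6.18e-05) and 1.31 ± 0.17 in tailed reads. RPS16 crossed in the same direction among all reads, with a change of 0.95 ± 0.17 (adjusted p = 0.00058), as did RPS27 with 0.94 ± 0.14 (adjusted p = 0.000155). In tailed reads their changes were 0.90 ± 0.21 and 1.15 ± 0.15, but the order did not switch between Log phase and Day 4. There the mean log2 ratio of RPS16 was 0.49 in Log phase and 1.40 on Day 4, and that of RPS27 was -1.44 and -0.29.

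RPS26 kept its order and moved further toward the A copy. RPS26 encodes a protein at the mRNA exit that the chaperone Tsr2 carries to the ribosome. Its log2 ratio was 2.28 and 2.37 in Log phase, 2.74 and 2.64 on Day 2, 3.41 and 3.35 on Day 3 and 3.28 and 3.40 on Day 4. Day 3 and Day 4 lay above both earlier groups, with a Day 4 change of 1.01 ± 0.13 (adjusted p = 5.51e-05).

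RPS4 moved both ways. Its log2 ratio was 1.94 and 1.94 in Log phase, 3.23 and 2.51 on Day 2, 1.56 and 1.77 on Day 3 and 1.16 and 0.97 on Day 4. Day 2 lay above Log phase by 0.93 ± 0.20 (adjusted p = 0.00299) and Day 4 below it by -0.88 ± 0.20 (adjusted p = 0.00356), and tailed reads gave 1.00 and -0.96. RPS10, RPS18, RPS21, RPS23 and RPS24 likewise had Day 2 ratios outside the range of the other 3 groups. In tailed reads RPS24 did not, at 1.85 and 1.54 on Day 2 and 1.93 and 1.84 on Day 3. In RPS21 the log2 ratio was -1.14 and -0.88 in Log phase, 0.42 and -0.14 on Day 2, -1.05 and -0.64 on Day 3 and -1.05 and -1.01 on Day 4, a Day 2 change of 1.15 ± 0.20 (adjusted p = 0.000922). Day 4 had returned to the Log phase range in RPS21.

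RPS22 depended on the reads counted. Its log2 ratio was 2.37 and 2.55 in Log phase, 1.83 and 2.06 on Day 2, 1.51 and 1.38 on Day 3 and 1.33 and 1.24 on Day 4, a Day 4 change of -1.18 ± 0.14 (adjusted p = 4.02e-05). In tailed reads the log2 ratio was 1.163 and 1.098 in the Day 4 libraries and 0.922 and 1.102 in the Log phase libraries, a change of 0.12 ± 0.16 (adjusted p = 0.575). The share of reads with a tail moved in opposite directions in the copies. It was 39.9% and 39.0% on Day 4 and 24.97% and 20.1% in Log phase for RPS22A, and 46.7% and 41.1% on Day 4 and 60.2% and 62.2% in Log phase for RPS22B, whose intron holds the small nucleolar RNA gene SNR44. Across the 53 genes whose totals in the count and gene tables differ by less than 10%, that share ran from 10.4% to 82.0% in Day 4 replicate 1 and from 14.7% to 76.4% in Log phase replicate 1.

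Poly(A) tails of small-subunit mRNAs were followed as the mean length over tailed reads, with limma on genes that had at least 10 tailed reads in every library. Of the 56 genes 55 were tested, RPS28B having too few tailed reads. On Day 2, 14 genes had longer tails than in Log phase (10.2% of 5388 genes tested) and 2 shorter (0.724%), with a median change of 0.93 nt against 0.96 nt over all genes. On Day 3, 10 were longer (1.35%) and 2 shorter (7.80%), with a median of 0.26 nt against -0.97 nt. On Day 4, 9 were longer (2.60%) and 7 shorter (13.8%), with a median of 0.10 nt against -1.17 nt. The median SE of the Day 2 change was 0.51 nt for the members and 1.15 nt over all genes. A change of the same size was thus called more readily among the members, so the shares called are not compared at equal precision.

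These counts rest on few libraries, and tail lengths were not scaled between libraries. The median tail of the members tested was 18.79 nt in Log phase replicate 1 and 17.97 nt in Log phase replicate 2. Over all genes tested it was 19.69 and 19.11 nt. The part of such library-wide differences in the calls was not tested. The 14 longer on Day 2 became 1 without Log phase replicate 2 and 4 without either Day 2 replicate, and the 2 shorter became 0 without Day 2 replicate 1 and 1 without Log phase replicate 1 or Day 2 replicate 2. The 10 longer on Day 3 became 3 without Log phase replicate 2 or Day 3 replicate 1 and 2 without Day 3 replicate 2, and the 2 shorter became 1 without Log phase replicate 1 and 4 without Log phase replicate 2. The 9 longer on Day 4 became 4 without Log phase replicate 2 and 5 without Day 4 replicate 1, and the 7 shorter became 3 without Log phase replicate 1 or Day 4 replicate 2. Calls that held whichever 1 of the 8 libraries was left out were RPS23A on Day 2, RPS0B, RPS27A and RPS29B on Day 3, and, on Day 4, RPS0B, RPS12, RPS21A and RPS27A among others.

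Between colony ages, 7 genes had shorter tails on Day 3 than on Day 2 (29.1% of genes tested) and 3 longer (0.705%; 1 without Day 2 replicate 1). The 7 were RPS1A, RPS4B, RPS16A, RPS23A, RPS24B, RPS27A and RPS30B, and the 3 were RPS12, RPS22A and RPS25B. The median change was -0.06 nt, against -1.95 nt over all genes. Day 4 against Day 3 gave 0 calls in limma among these genes and 0 among all 5388, with 8 shorter (14.5%) and 2 longer (3.64%) members at an unadjusted p under 0.05, against 5.59% shorter and 3.23% longer among all genes. The median SE there was 0.51 nt for the members and 1.13 nt over all genes, with median changes of -0.23 and -0.19 nt.

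**Figure D4:**
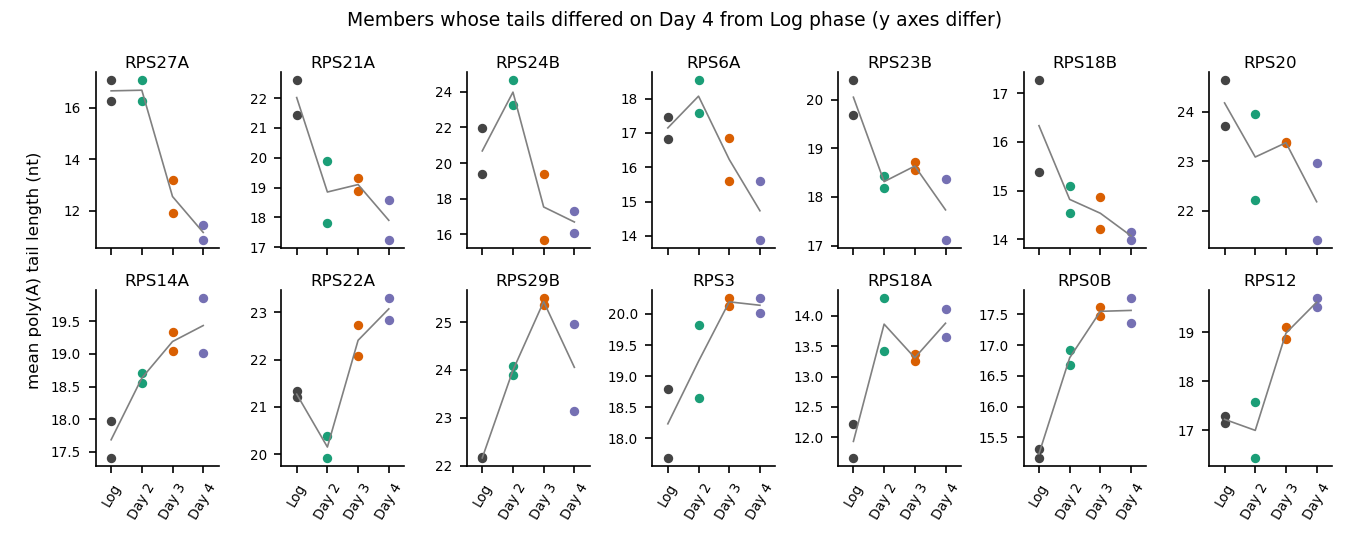
Mean poly(A) tail length in nt (y axis, scaled separately for each gene) in the 2 libraries of each group (points; the line joins group means) for 14 of the 16 small-subunit genes whose tails differed between Day 4 and Log phase, ordered from the largest drop to the largest rise. RPS27A tails are 11.45 and 10.84 nt on Day 4 and 17.08 and 16.25 nt in Log phase, and RPS12 tails are 19.7 and 19.52 nt on Day 4 and 17.3 and 17.15 nt in Log phase.

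RPS27A had the largest drop. Its tails averaged 17.08 and 16.25 nt in Log phase, 17.1 and 16.28 nt on Day 2, 11.9 and 13.19 nt on Day 3 and 11.45 and 10.84 nt on Day 4. Log phase and Day 2 lay together and Day 3 and Day 4 well below, with a Day 4 change of -5.52 ± 0.61 nt (limma, adjusted p = 8.53e-06). RPS21A, a protein of the body, had 22.62 and 21.42 nt in Log phase, 17.81 and 19.89 nt on Day 2, 19.32 and 18.88 nt on Day 3 and 18.57 and 17.23 nt on Day 4. All of its colony libraries lay below Log phase, with a Day 4 change of -4.12 ± 0.65 nt (adjusted p = 0.000249).

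RPS24B tails were longer on Day 2 and shorter on Day 4 than in Log phase. They averaged 21.96 and 19.4 nt in Log phase, 24.69 and 23.29 nt on Day 2, 15.65 and 19.4 nt on Day 3 and 17.29 and 16.07 nt on Day 4. The Day 2 change was 3.31 ± 1.04 nt (adjusted p = 0.0444), which failed without Log phase replicate 2 (0.451), Day 2 replicate 1 (0.258) or Day 2 replicate 2 (0.0596), and the Day 4 change was -4.00 ± 1.04 nt (adjusted p = 0.0114), which failed without Log phase replicate 1 (0.212) or Day 4 replicate 2 (0.0996). RPS6A, one copy of a protein phosphorylated downstream of TORC1, had 17.46 and 16.83 nt in Log phase, 18.55 and 17.59 nt on Day 2, 15.6 and 16.85 nt on Day 3 and 13.87 and 15.59 nt on Day 4. The Day 4 libraries were the lowest, with a change of -2.41 ± 0.71 nt (adjusted p = 0.0242), which failed without Log phase replicate 1 (0.178), Log phase replicate 2 (0.0544) or Day 4 replicate 1 (0.242).

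RPS12, a protein of the head, had tails of 17.3 and 17.15 nt in Log phase, 16.43 and 17.57 nt on Day 2, 18.86 and 19.1 nt on Day 3 and 19.7 and 19.52 nt on Day 4, a change of 2.39 ± 0.48 nt (adjusted p = 0.00191). Its rise lay between Day 2 and Day 3, at 1.98 ± 0.48 nt (adjusted p = 0.00527).

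RPS0B, a protein of the body, had tails of 15.31 and 15.16 nt in Log phase, 16.92 and 16.67 nt on Day 2, 17.48 and 17.62 nt on Day 3 and 17.77 and 17.36 nt on Day 4. Every colony library was above Log phase, with a Day 4 change of 2.33 ± 0.46 nt (adjusted p = 0.00165). RPS18A, a head protein, had 12.21 and 11.65 nt in Log phase, the shortest tails of any member tested there, and 14.3 and 13.43 nt on Day 2, 13.37 and 13.25 nt on Day 3 and 14.11 and 13.65 nt on Day 4. Its Day 4 change of 1.95 ± 0.49 nt (adjusted p = 0.00955) failed without Log phase replicate 2 (0.0711) or Day 4 replicate 1 (0.0863). RPS18B moved the other way, by -2.27 ± 0.58 nt on Day 4 (adjusted p = 0.0106), and failed without Log phase replicate 1 (0.206) or Day 4 replicate 2 (0.0727).

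RPS23A tails were longest on Day 2. RPS23A encodes a protein of the decoding centre, and its tails averaged 13.22 and 12.87 nt in Log phase, 16.8 and 16.05 nt on Day 2, 12.52 and 13.08 nt on Day 3 and 13.39 and 12.76 nt on Day 4. Day 2 lay above all other libraries, by 3.38 ± 0.52 nt against Log phase (adjusted p = 0.000531), and Day 3 was 3.62 nt below Day 2 (-3.62 ± 0.52 nt, adjusted p = 0.000109).

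Across the members, correlations between level and tail length were weak. Over 55 genes, Spearman's rho between the Day 4 change of tail length and the Day 4 log2 fold change was -0.23, and between tail length in Log phase and that fold change 0.15. Between the Log phase level and the Day 4 fold change it was -0.35 over 56 genes. The Log phase level itself enters that fold change, and the 56 include RPS20, whose counts are uncertain, and RPS28B, whose counts are few. These describe genes that share libraries and are no test.

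Within pairs, the mean tail lengths measured on the A and B copies differed. These means are over reads with a tail, and the reads hold only part of the tail. Over the 56 genes and all libraries, Spearman's rho between the share of reads with a tail and the mean tail length was 0.53. Whether this relation bears on the differences within pairs was not tested. Averaged over the groups, 22 of the 23 pairs tested differed (limma, adjusted p under 0.05; 89.7% of all 58 A/B-named pairs), with the A copy longer in 12 and the B copy longer in 10. The difference itself changed across the groups in 15 pairs (56.9% of all pairs), in 7 without Day 2 replicate 1 and in 8 without Log phase replicate 1.

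**Figure D5:**
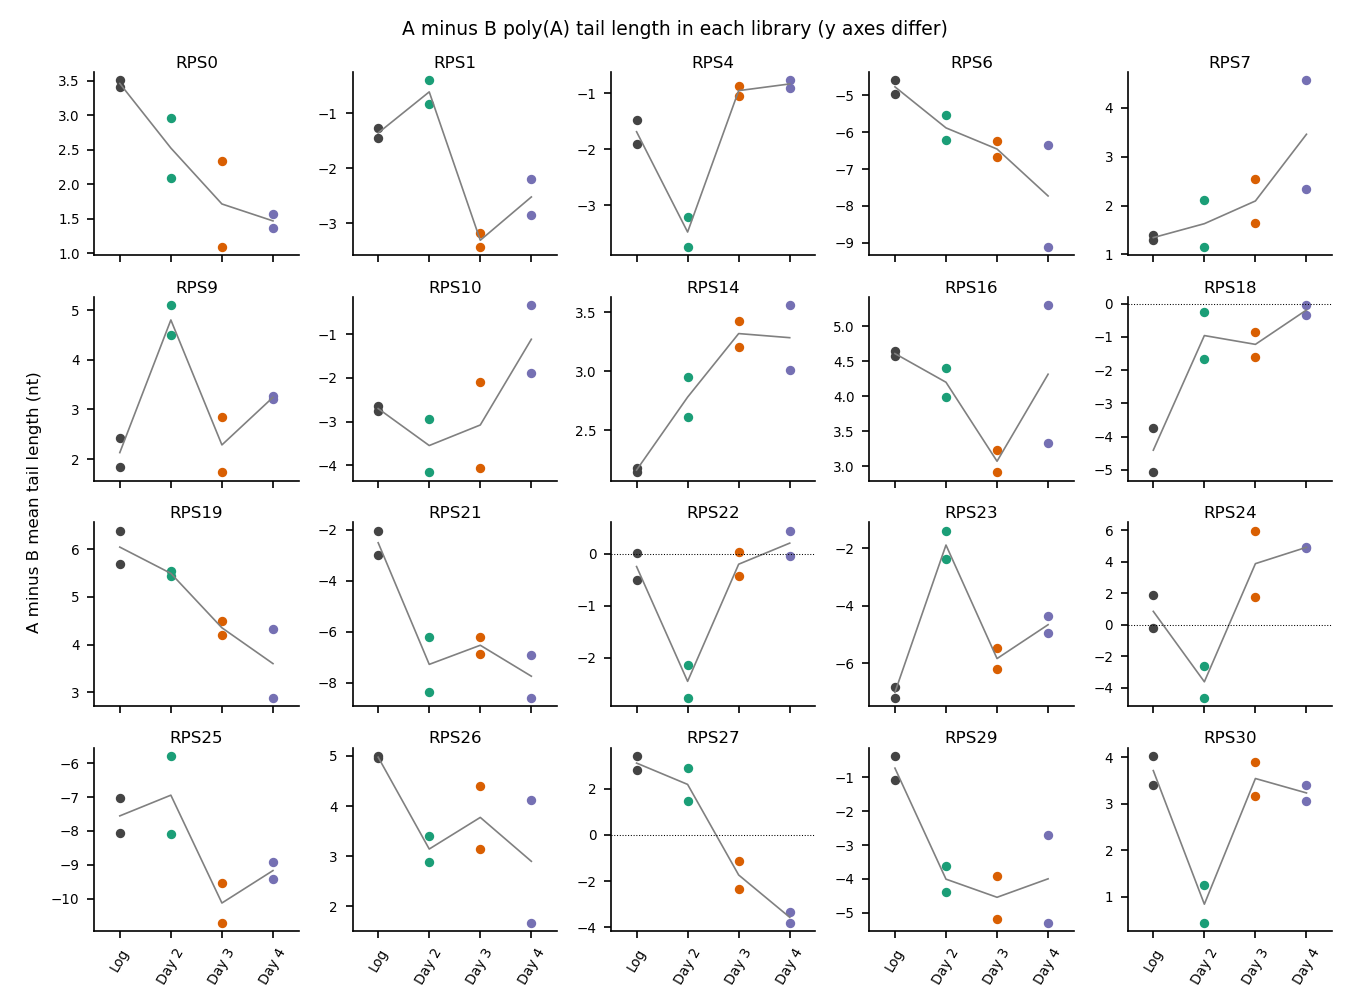
A minus B difference of mean poly(A) tail length in nt (y axis, scaled separately for each pair) in the 2 libraries of each group (points; the line joins group means) for 20 of the 23 small-subunit pairs tested. Dotted lines mark equal tails. RPS25 stays between -10.71 and -5.79 nt in all libraries, and RPS27 is at -3.32 and -3.82 nt on Day 4 and at 3.43 and 2.81 nt in Log phase.

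RPS25, a head protein that certain viral internal ribosome entry sites require, had the smallest p. Its A minus B difference was -7.04 and -8.07 nt in Log phase, -5.79 and -8.10 nt on Day 2, -9.53 and -10.71 nt on Day 3 and -9.41 and -8.92 nt on Day 4, so that RPS25A had the shorter tails in all 8 libraries. The mean difference was -8.44 ± 0.30 nt (adjusted p = 8.3e-10). RPS6A tails were also the shorter in every library, by a mean of -6.21 ± 0.31 nt (adjusted p = 9.39e-09), with differences of -4.95 and -4.58 nt in Log phase, -5.54 and -6.22 nt on Day 2, -6.67 and -6.24 nt on Day 3 and -9.12 and -6.34 nt on Day 4.

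RPS19 had longer tails on the A copy. The difference was 6.39 and 5.70 nt in Log phase, 5.44 and 5.55 nt on Day 2, 4.21 and 4.50 nt on Day 3 and 4.32 and 2.89 nt on Day 4, with a mean of 4.88 ± 0.24 nt (adjusted p = 9.14e-09). The colony libraries all lay below Log phase. RPS23A tails were shorter than those of RPS23B by -7.19 and -6.82 nt in Log phase, -1.39 and -2.39 nt on Day 2, -6.19 and -5.47 nt on Day 3 and -4.96 and -4.35 nt on Day 4, with a mean of -4.85 ± 0.23 nt (adjusted p = 8.88e-09). The gap was narrowest on Day 2 in RPS23, where it differed from Log phase by 5.12 ± 0.65 nt (adjusted p = 0.000386).

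RPS27 was the pair with no mean difference and the clearest change. RPS27A minus RPS27B was 3.43 and 2.81 nt in Log phase, 2.90 and 1.49 nt on Day 2, -2.33 and -1.14 nt on Day 3 and -3.32 and -3.82 nt on Day 4. RPS27A had the longer tails in Log phase and on Day 2 and the shorter ones on Day 3 and Day 4, a change of -6.69 ± 0.72 nt on Day 4 (adjusted p = 9.8e-05). Over the same groups the RPS27A share of the pair's counts rose, with a log2 ratio of 0.11 and 0.14 on Day 4, against -0.78 and -0.87 in Log phase.

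Other genes of the pathway were read from lists of known factors. Of 3 partners of the small subunit, STM1 and TMA46, whose proteins bind ribosomes, were lower on each of the 3 days, and on Day 4 by -2.42 ± 0.14 and -2.19 ± 0.16. ASC1, which encodes a scaffold protein on the head, was lower on Day 2 and Day 3 and higher on Day 4 by 0.44 ± 0.16 (adjusted p = 0.0135). Its count table entry holds 2.24 times the reads of the gene table, and in tailed reads ASC1 was lower on Day 4 by -3.15 ± 0.18 (adjusted p = 1.66e-13), so its direction is uncertain.

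All 6 chaperones and assembly factors that attend small-subunit proteins (YAR1, TSR2, FAP7, LTV1, RRP7 and PNO1) were lower on each of the 3 days, against 28.2%, 34.4% and 37.0% of all genes. TSR2, whose protein escorts Rps26, averaged 87.8 ± 7.2 CPM in Log phase, 39.4 ± 13.3 CPM on Day 2, 19.2 ± 0.014 CPM on Day 3 and 11.9 ± 1.8 CPM on Day 4 (SD, n = 2 each), a change of -2.88 ± 0.23 on Day 4 (adjusted p = 9.67e-11). RRP7 changed least, by -0.60 ± 0.16 (adjusted p = 0.00144). In tailed reads RRP7 was called on none of the 3 days, at 0.35 (adjusted p = 0.376), -0.37 (adjusted p = 0.341) and 0.22 (adjusted p = 0.545), and LTV1 was lower on Day 2 alone, with -0.10 (adjusted p = 0.718) on Day 3 and 0.12 (adjusted p = 0.675) on Day 4. The other 4 were lower on all 3 days in tailed reads.

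Of 11 factors that act on the transcription of ribosomal protein genes, 5 were lower and 3 higher on Day 2, 6 lower and 3 higher on Day 3, and 5 lower and 5 higher on Day 4. As shares of the list these were 45.5% lower and 27.3% higher, 54.5% and 27.3%, and 45.5% each, against 28.2% and 28.3%, 34.4% and 34.5%, and 37.0% and 37.2% of all genes. CRF1, a corepressor that competes for the factor Fhl1, averaged 2.28 ± 0.58 CPM in Log phase, 28.0 ± 14.1 CPM on Day 2, 48.3 ± 3.9 CPM on Day 3 and 58.8 ± 0.24 CPM on Day 4 (SD, n = 2 each), a change of 4.69 ± 0.34 on Day 4 (adjusted p = 1.21e-11). DOT6, a repressor of ribosome biogenesis genes, was higher by 1.81 ± 0.16, and its paralog TOD6 lower by -1.26 ± 0.18, where tailed reads gave -0.48 ± 0.23 (adjusted p = 0.0655). HMO1 and ABF1, whose proteins bind ribosomal protein promoters, were lower by -0.90 ± 0.16 and -1.17 ± 0.17. RAP1 was lower on Day 2 by -0.82 ± 0.21 (adjusted p = 0.0022) and had a Day 4 change of 0.08 ± 0.21 (adjusted p = 0.754), where its tailed reads gave 0.96 ± 0.28 (adjusted p = 0.00466). SFP1, STB3 and FHL1 were called higher on Day 4, but the count table holds 0.3, 0.35 and 0.17 times their gene table reads, and IFH1 is part of a merged entry. In tailed reads SFP1 was higher on Day 4 by 0.83 ± 0.22 (adjusted p = 0.00185) and STB3 by 1.02 ± 0.20 (adjusted p = 8.15e-05). FHL1 had -0.446 ± 0.325 there (adjusted p = 0.225) and was not called.

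Of 12 genes of poly(A) tail binding and mRNA turnover, 6 were lower and 1 higher on Day 2, 9 lower and 1 higher on Day 3, and 8 lower and 2 higher on Day 4. As shares of the list these were 50% lower and 8.33% higher, 75% and 8.33%, and 66.7% and 16.7%, beside the shares of all genes just given. PAB1 averaged 2505 ± 347 CPM in Log phase, 821 ± 85 CPM on Day 2, 715 ± 17 CPM on Day 3 and 1222 ± 32 CPM on Day 4 (SD, n = 2 each), changes of -1.61, -1.81 and -1.03 on the log2 scale. CCR4, a deadenylase, was lower on Day 2 and Day 3 by -1.38 and -1.55 and had -0.39 ± 0.20 on Day 4 (adjusted p = 0.0811), where its tailed reads gave -0.89 ± 0.26 (adjusted p = 0.00404). DHH1, a helicase that promotes decapping, and PUF3, an RNA-binding protein, were higher on Day 4 by 2.10 ± 0.26 and 1.03 ± 0.16.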

How the data were processed

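PAT-seq libraries of total RNA had been sequenced by the authors in 75-base reads on a SOLiD instrument, per the labels' protocols. The authors deposited read counts per gene, counts of tailed reads per gene and mean tail lengths in nt per library, and a gene table with coordinates, reads, mean tail length and, as a fraction, the tailed share of reads, over all libraries. Not given in the sources used here are the aligner, the tail rule, the assignment of reads and the build. All 56 members lay at identical positions in the RefSeq R64 annotation, used for sequences. All columns were mapped to samples by name, in 4 groups of 2.

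Counts were tested with edgeR 4.0.16 (TMM, filterByExpr, quasi-likelihood F test, all 8 libraries, SE from the fold change and F). Tail length was tested with limma 3.58.1 (genes with 10 or more tailed reads in each library, weighted by them up to 100, trend), and A/B ratios with limma on log2 of counts plus 0.5. P-values were adjusted (Benjamini-Hochberg) over all genes, or over all A/B-named pairs of the genome. The threshold was 0.05. Ratio changes are in log2 units. Alternatives covered DESeq2 1.42.0, normalisation, filters, weights, tailed reads, a replicate block and leaving out each library. R 4.3.3 and Python 3.11.15 were used. Tests were tried on simulated data. Replicate numbers did not pair the libraries (correlation of deviations -0.0349 to 0.00554), so no block was used. The biological coefficient of variation was 0.128.

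Members and lists were chosen with earlier results of these data known. Some of the members are counted but not reported here by name. Values in every library are printed for the others among the 4 most and 4 least changed members, uncalled members, the highest member, the 5 pairs with the smallest p for ratio, the 4 largest tail rises and drops and the 4 pairs with the smallest p for tail difference. RPS31, RPS4B, RPS21, RPS23A and RPS27 were added after their values were seen, as were the groups by position and the promoter motifs. MF(ALPHA)1 and STE3 were added likewise.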

Additional observations from a re-analysis of the deposited data

How the results depend on the processing

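Of 325 summary counts recomputed under the alternatives, 304 stayed within 1.5 times the main count, including all under other normalisations, filters on counts, DESeq2 and tailed reads. With at least 50 tailed reads, 11 members had shorter tails on Day 3 than on Day 2 in place of 7. Leaving out 1 library in turn, where the lone library of a group is assumed to vary like the others, gave 0 to 1 members higher on Day 3 than on Day 2 and 14 to 43 lower on Day 4 than on Day 3. It gave 0 to 2 shorter and 1 to 13 longer on Day 2 against Log phase, 1 to 4 shorter and 2 to 10 longer on Day 3, and 3 to 8 shorter and 4 to 9 longer on Day 4. It gave 1 to 4 longer on Day 3 against Day 2, and 7 to 17 pairs with a changed tail difference. The cause of these moves was not tested, beyond the fewer libraries.

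With a replicate block the members lower were 54, 55 and 55 on Day 2, Day 3 and Day 4, and longer tails on Day 2 numbered 11 in place of 14. The numbers do not pair the samples. With tailed reads 5 ratio changes called in one of the 2 kinds of read took the other sign on Day 2 or Day 4. On Day 4 they were RPS22 at 0.12 (adjusted p = 0.575), RPS23 at 0.82 (adjusted p = 0.000656) and RPS24 at 0.15 (adjusted p = 0.47). On Day 2 they were RPS0 at 0.00 (-0.004, adjusted p = 0.992) and RPS9 at 0.60 (adjusted p = 0.0188). Changes called in neither kind of read also differed in sign in some pairs. Among single genes and pairs, 5576 values kept their side of the threshold, 179 lost it and 31 gained it. Depth limits RPS28B, and RPS20 among all reads.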
